A study of Mus musculus with 21 samples.

Results

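The transcripts of 10 regulators of the G1 phase were followed in embryonic cerebral cortex that carries 1 of 3 mutations of the transcription factor gene Pax6. The genes were the D-type cyclins Ccnd1, Ccnd2 and Ccnd3, the kinases Cdk4 and Cdk6, the kinase inhibitors Cdkn1a, Cdkn1b and Cdkn1c, Rbl1 and Hmga2. They were found by symbol among 18193 genes named by the probe sets of the array, where they had 32 of 34945 probe sets that name 1 gene. All 10 entered the comparisons among 13850 genes, with 28 probe sets that passed a filter on low values. No gene passed only through 1 group of arrays, since the probe set that stands for each gene lay above the filter level of its array on all 21 arrays, by 1.06 or more on the log2 scale.

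The tissue was rostral cerebral cortex of mouse embryos at day 14, with 1 Affymetrix array of total RNA per sample and no treatment. The Small-eye (Sey) line, on a C57BL/6J x DBA/2J (B6D2F1) background, gave 4 arrays of Pax6 Sey mutants and 3 of wild-type littermates. The Leca4 line, of strain 129 S6, gave 3 mutant and 4 littermate arrays, and the Leca2 line, also 129 S6, gave 4 and 3. The labels call the arrays of a group biological replicates and do not give the zygosity of the mutants or whether embryos were pooled, and p-values rest on the spread among these samples, which may be technical. Mutants were set against littermates of the same line. The words rose, fell and changed are kept for a Benjamini-Hochberg adjusted p under 0.05 over all 13850 genes in limma.

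D-type cyclins bind Cdk4 and Cdk6 in G1, and the active kinases phosphorylate the retinoblastoma family, which frees E2F factors to switch on genes of DNA replication. The inhibitors of the Cip/Kip family, encoded by Cdkn1a, Cdkn1b and Cdkn1c, bind cyclin and kinase complexes and slow or stop entry into S phase. In the developing cortex the length of G1 and the choice between further division and neuron formation are linked, and Ccnd2 transcript is abundant in radial glia, the stem cells of the ventricular zone.

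Some facts of the whole series bear on the values. Array medians lay between 6.03 and 6.07 in Sey, 6.25 and 6.26 in Leca4 and 6.11 and 6.18 in Leca2, so levels are not tested across lines. Pax6 transcript, the check of the targeted gene, was higher in each mutant than in its littermates, by a log2 change of 0.56 ± 0.09 (SE) in Sey, 0.49 ± 0.09 in Leca4 and 0.93 ± 0.09 in Leca2 (adjusted p = 0.000184, 0.00276 and 1.1e-05 in limma), which does not show whether the protein is made. Read from Xist, Eif2s3y and Kdm5d, 3 of 4 Sey mutants were female and all 3 Sey controls male, 1 of 3 Leca4 mutants and 1 of 4 controls were female, and 2 of 4 Leca2 mutants and 3 of 3 controls were female.

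In Sey mutants 5 of the 10 G1 genes rose and 1 fell, in Leca4 only Cdkn1c rose among them, and in Leca2 none changed. The rises in Sey were those of Ccnd2 (1.6-fold), Cdkn1c (1.7-fold), Rbl1 (1.56-fold), Ccnd3 (1.17-fold) and Cdk4 (1.14-fold), and the fall was that of Hmga2 (3.2-fold). Of all genes tested, 20.2% were called in Sey (10.7% upward and 9.41% downward), 5.62% in Leca4 (3.39% upward and 2.24% downward) and 0.477% in Leca2 (0.173% and 0.303%). At an unadjusted p under 0.05 the counts among the 10 were 7 in Sey, 2 in Leca4 and 0 in Leca2. Their median log2 change was 0.20 in Sey, 0.04 in Leca4 and 0.08 in Leca2, beside medians over all genes of 0.00, 0.01 and 0.01. The plot of changes with their intervals sets the lines side by side.

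**Figure D1:**
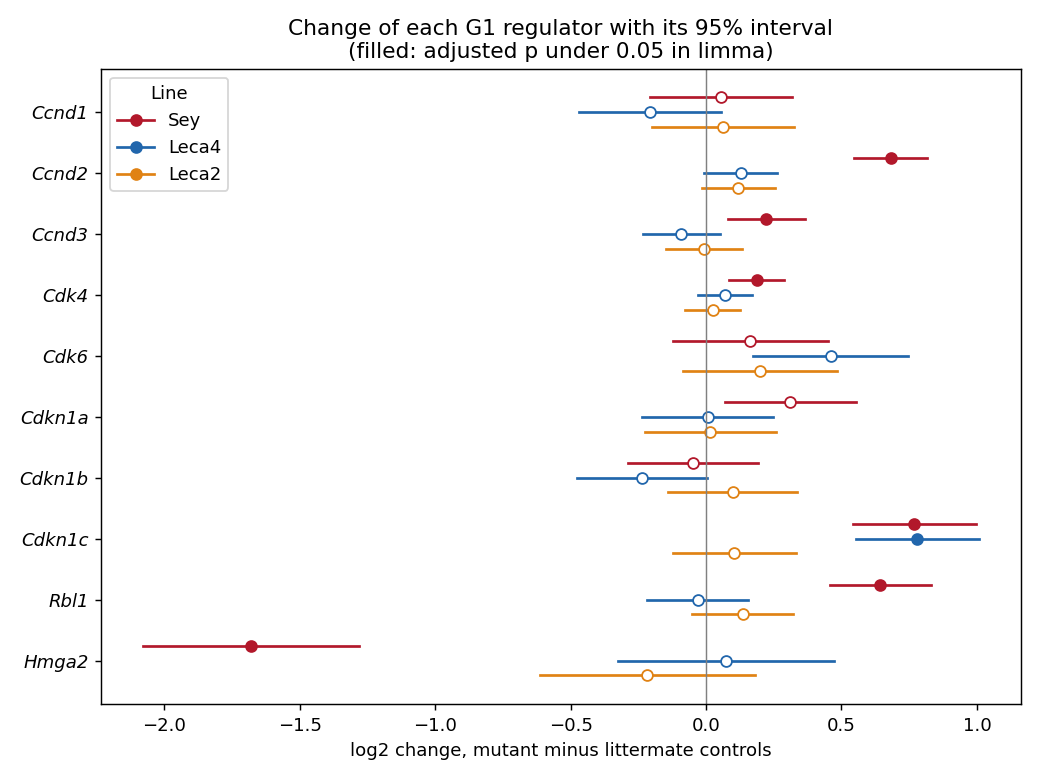
Log2 change (mutant minus littermate controls, x axis) of the 10 G1 regulators in the Sey, Leca4 and Leca2 lines; points are limma estimates from 3 or 4 arrays a group, bars are 95% intervals and filled points have an adjusted p under 0.05. The filled points are those of Ccnd2, Ccnd3, Cdk4, Cdkn1c, Rbl1 and Hmga2 in Sey and of Cdkn1c in Leca4, where its change (0.78) is close to that in Sey (0.77).

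Ccnd2, which encodes cyclin D2, was the D-type cyclin with the largest change. Its log2 values were 13.24, 13.21 and 13.07 on the Sey control arrays and 13.91, 13.85, 13.87 and 13.78 on the mutant arrays. All mutant arrays lay above all controls, as did those of 16.5% of all genes in Sey, with group means of 13.17 ± 0.09 (SD, n = 3) and 13.85 ± 0.06 (SD, n = 4). The log2 change was 0.68 ± 0.06 (SE; adjusted p = 3.34e-07 in limma). In Leca4 the arrays overlapped, at 13.26 to 13.36 in controls and 13.30 to 13.56 in mutants, with a change of 0.13 and a 95% interval from -0.01 to 0.26 (adjusted p = 0.306). In Leca2 they also overlapped, at 13.33 to 13.50 and 13.46 to 13.64, with a change of 0.12 and an interval from -0.02 to 0.25 (adjusted p = 0.815). The change in Sey exceeded that in Leca4 by 0.55 ± 0.09 and that in Leca2 by 0.56 ± 0.09 (SE; adjusted p = 0.000423 and 0.000643 in limma). Such a difference was called for 12.8% of all genes between Sey and Leca4 and 6.69% between Sey and Leca2.

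Ccnd2 had 7 probe sets, and all 7 rose in Sey when each was tested on its own, by 0.68 to 1.06, with mutant arrays above controls on each. Among all 25140 probe sets tested this way 16.6% were called in Sey. The probe set that stands for the gene is the brightest and gave the smallest of these changes. In Leca4 the log2 differences of the 7 probe sets were 0.13 to 0.42 and in Leca2 -0.07 to 0.12, and none was called. At an unadjusted p under 0.05 in limma there were 2 of them in Leca4 and 0 in Leca2. Of all probe sets 4.3% were called in Leca4 and 0.426% in Leca2. The difference between the changes in Sey and Leca4 was not called on the probe sets with 0.52, 0.58 and 0.62 (adjusted p = 0.0531, 0.228 and 0.0913 in limma). It was called on the rest, and between Sey and Leca2 on all 7.

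Ccnd3 (cyclin D3) rose less. Its log2 values were 8.48, 8.34 and 8.36 in Sey controls and 8.69, 8.66, 8.52 and 8.58 in mutants, so the groups did not overlap, at a log2 change of 0.22 ± 0.07 (SE; adjusted p = 0.0242 in limma). This call was lost with a term for sex in the model (adjusted p = 0.104). It was also lost when mutant replicate 1 or 2 of Sey, or its control replicate 2 or 3, was left out (adjusted p from 0.0602 to 0.1). A second kept probe set of Ccnd3 had a difference of -0.04 (adjusted p = 0.866), and the mean of both gave 0.09 (adjusted p = 0.44). In Leca4 and Leca2 the changes were -0.09 and -0.01 (adjusted p = 0.54 and 1).

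Ccnd1 (cyclin D1) did not pass the test in any line. Its values in Sey were 9.82, 10.13 and 10.21 in controls and 10.01, 9.89, 10.43 and 10.11 in mutants, which overlap throughout. The log2 change was 0.06, with a 95% interval from -0.21 to 0.32, and its 3 probe sets gave 0.04 to 0.14. In Leca4 all 3 probe sets were lower in mutants, by 0.21 to 0.46 on the log2 scale, and none was called (adjusted p = 0.164 to 0.434 among probe sets). Its other probe sets had an unadjusted p of 0.0159 and 0.0174 in limma. On the first of these all mutants (8.83 to 9.29) lay below all controls (9.37 to 9.56), and the share of all genes with that order is not given here. On the probe set that stands for the gene the arrays overlapped, at 10.46 to 10.81 in mutants and 10.74 to 11.02 in controls. In Leca2 the change was 0.06, with an interval from -0.20 to 0.32 (adjusted p = 1).

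**Figure D2:**
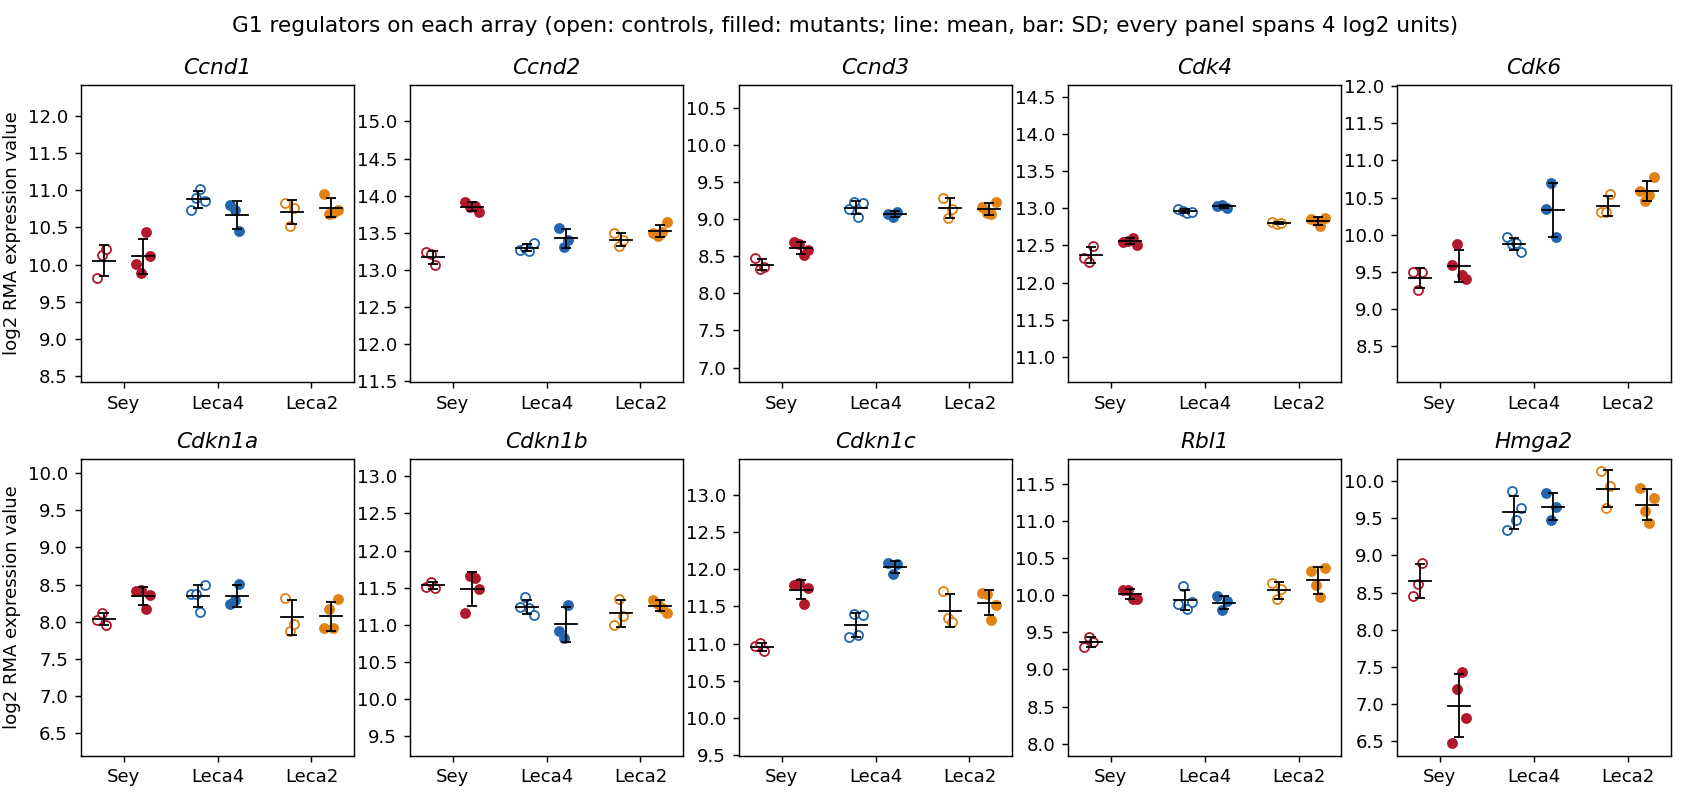
Log2 RMA expression value (y axis; every panel spans 4 log2 units) of each G1 regulator on each of the 21 arrays, with open points for controls and filled points for mutants; horizontal lines are group means and bars SD over 3 or 4 arrays. Mutant and control arrays of Sey do not overlap for Ccnd2, Ccnd3, Cdk4, Cdkn1a, Cdkn1c, Rbl1 and Hmga2, and those of Leca4 do not for Cdk4 and Cdk6, by small gaps, and for Cdkn1c, where the lowest mutant is at 11.93 and the highest control at 11.40.

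Of the kinase genes, Cdk4 rose slightly in Sey. Its values were 12.34, 12.28 and 12.49 in controls and 12.55, 12.56, 12.61 and 12.51 in mutants, close but without overlap. Cdk4 rose by 0.19 ± 0.05 (SE; adjusted p = 0.00842 in limma), and all 3 probe sets were called (0.19 to 0.30). The call of Cdk4 was lost when control replicate 2 of Sey was left out (adjusted p = 0.0687) and when only the Sey arrays were fitted (adjusted p = 0.0733). In Leca4 its difference was 0.07, with an interval from -0.03 to 0.17, and the mutant arrays (13.03 ± 0.02, SD, n = 3) all lay just above the controls (12.96 ± 0.03, SD, n = 4), without a call. In Leca2 it was 0.02, with an interval from -0.08 to 0.13. A difference between the lines in the change of Cdk4 was not called (adjusted p = 0.29 for Sey and Leca4 and 0.186 for Sey and Leca2).

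Cdk6, the second kinase that D-type cyclins activate, had its largest change in Leca4. There the values were 9.96, 9.88, 9.89 and 9.76 in controls and 10.34, 10.69 and 9.96 in mutants. The lowest mutant array was level with the highest control to the second decimal, while the other 2 mutants were well above. The log2 change of 0.46 ± 0.14 (SE) missed the threshold (adjusted p = 0.0549 in limma). It was called with a stricter filter (adjusted p = 0.0495), with a trend and robust variance (0.0486), with a term for sex (0.0383) and without Leca4 mutant replicate 3 (0.00679), where it was 0.64, and it was 0.28 (adjusted p = 0.263) without Leca4 mutant replicate 2. A second probe set gave 0.04 in Leca4 (adjusted p = 0.939), and the mean of all 3 probe sets 0.27 (adjusted p = 0.218). In Sey and Leca2 the differences of Cdk6 were 0.16 and 0.20, with intervals from -0.12 to 0.45 and from -0.09 to 0.49.

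Cdkn1c, an inhibitor of G1 kinases that is imprinted and expressed from the maternal allele, was the G1 gene of this set that rose in 2 lines. In Sey its log2 values were 10.96, 11.01 and 10.90 in controls and 11.79, 11.81, 11.54 and 11.75 in mutants. In Leca4 they were 11.09, 11.40, 11.12 and 11.39 in controls and 12.08, 11.93 and 12.07 in mutants. In both lines the groups stood fully apart, with mutants higher, and the arrays of 16.5% of all genes did so in Sey and of 8.25% in Leca4. The log2 change was 0.77 ± 0.11 (SE; adjusted p = 3.71e-05 in limma) in Sey and 0.78 ± 0.11 (SE; adjusted p = 0.000152) in Leca4, and the difference between the lines was -0.01 with a 95% interval from -0.33 to 0.31.

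In Leca2 the values of Cdkn1c overlapped, at 11.70, 11.34 and 11.29 in controls and 11.68, 11.67, 11.32 and 11.52 in mutants. The change was 0.10, with an interval from -0.12 to 0.33 (adjusted p = 1). The rise in Leca4 exceeded the change in Leca2 by 0.68 ± 0.15 and that in Sey exceeded it by 0.67 ± 0.15 (SE; adjusted p = 0.0216 and 0.0114 in limma), where 2.38% of all genes differed between Leca4 and Leca2. The difference between Leca4 and Leca2 was not called when only these 2 lines were fitted, with a block of replicate numbers, without Leca2 control replicate 1 or without Leca4 mutant replicate 1. Cdkn1c has 1 probe set on the array, so no second measurement of it was at hand. Its call in Sey and in Leca4 held in every alternative run, with an adjusted p of at most 0.00108 in Sey and 0.00597 in Leca4.

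The other inhibitors of the family did not pass the test. Cdkn1a, a target of p53, had values of 8.02, 8.12 and 7.96 in Sey controls and 8.42, 8.43, 8.16 and 8.36 in mutants. These groups did not overlap, and the log2 change of 0.31 ± 0.12 (SE) had an adjusted p of 0.0652 in limma. It was called when only the Sey arrays were fitted (adjusted p = 0.0237) and without Sey mutant replicate 3 (0.0404), and not with a term for sex. Its second probe set gave 0.20 with overlapping arrays (adjusted p = 0.202). In Leca4 and Leca2 the changes were 0.01 and 0.02.

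Cdkn1b, which holds cells in quiescence and acts in cortical neurons, had differences of -0.05 in Sey, -0.24 in Leca4 and 0.10 in Leca2, with 95% intervals from -0.29 to 0.19, -0.47 to 0.00 and -0.14 to 0.34. Its 2 probe sets gave unlike values in Leca2. On the dimmer one the controls were at 7.71, 8.20 and 7.88 and the mutants at 7.28, 7.21, 7.59 and 7.53, all below the controls. Among all genes 3.34% had such an order in Leca2 and 3.26% the opposite one. That difference of -0.53 ± 0.14 (SE) was not called among all probe sets (adjusted p = 0.122 in limma), and the brighter one, at 0.10, had overlapping arrays.

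**Figure D3:**
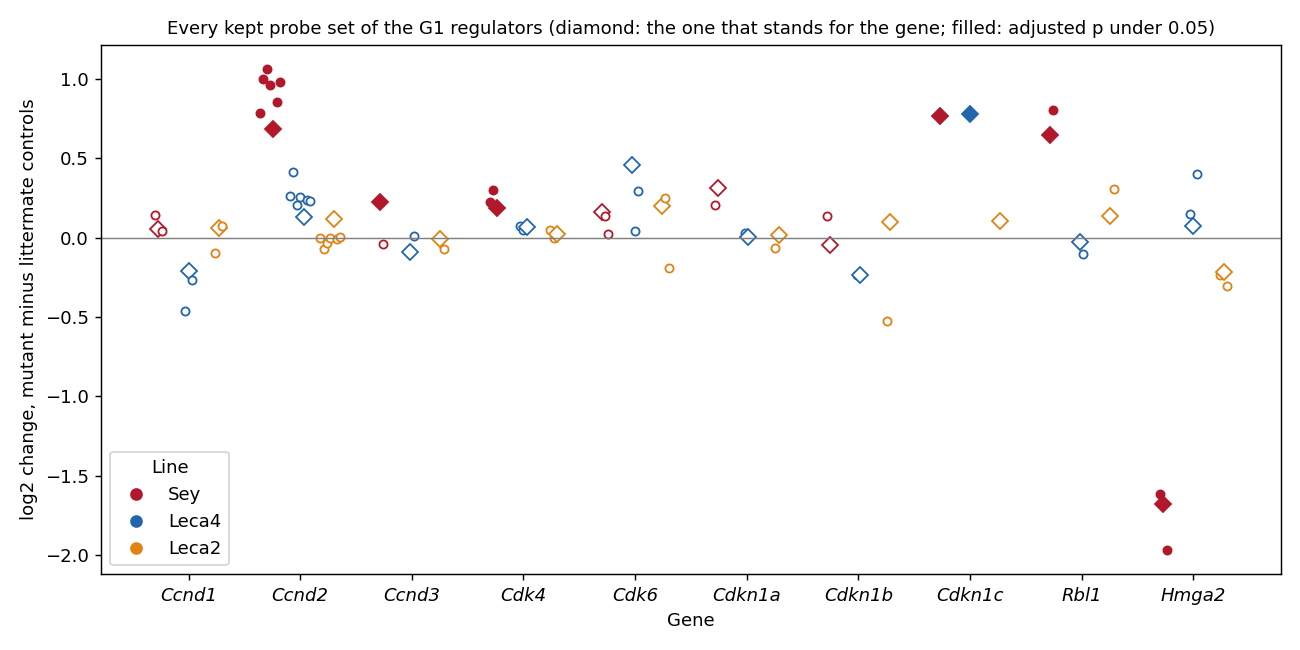
Log2 change (y axis) of each of the 28 kept probe sets of the G1 regulators in each line; diamonds are the probe set that stands for the gene and filled points have an adjusted p under 0.05 over all probe sets. All 7 probe sets of Ccnd2, all 3 of Cdk4 and all 3 of Hmga2 were called in Sey, while the probe sets of Ccnd3, Cdk6 in Leca4 and Cdkn1b in Leca2 differ among themselves.

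Rbl1 encodes a pocket protein of the retinoblastoma family that binds E2F factors and is itself a known E2F target. In Sey its values were 9.30, 9.43 and 9.37 in controls and 10.08, 10.07, 9.96 and 9.96 in mutants, well apart. Rbl1 rose by 0.64 ± 0.09 (SE; adjusted p = 3.07e-05 in limma). A second, dim probe set rose by 0.80 (adjusted p = 0.0195). Its Sey controls, at 4.714 to 5.215, and its lowest Sey mutant, at 5.298, lay below the filter level, which was 5.3694 or more. Its Sey mutants ran up to 6.501 (SD 0.553), so this rise was measured close to that level. Another 2 probe sets were below the filter level on all 21 arrays. In Leca4 the change was -0.03 and in Leca2 0.14, with intervals from -0.22 to 0.16 and from -0.05 to 0.32. The change in Sey exceeded these by 0.67 ± 0.13 and 0.51 ± 0.13 (SE; adjusted p = 0.00141 and 0.0187 in limma). On the second probe set these differences were 0.90 and 0.50 and were not called (adjusted p = 0.0844 and 0.486 in limma). Rbl1 lies on the chromosome of Pax6, with 551 protein-coding genes of the RefSeq table between them.

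The region before the start of Rbl1 is shown because it holds a word that E2F factors are known to bind, as do regions before genes of S phase that rose with it. Promoter sequences are from RefSeq (mouse build GRCm38.p6), 250 bases before to 50 after a start, and 7 of the 10 G1 genes had at least 1 entry, Ccnd3, Cdk4, Cdk6, Cdkn1a, Cdkn1b, Hmga2 and Rbl1. The words searched on both strands were TTTCCCGC, TTTCGCGC, TTTGCCGC and TTTGGCGC for E2F, and TTTGAA, a core of the cell cycle homology region of mitotic genes. No E2F word overlapped TTTGAA in any promoter. The Rbl1 sequence, on the minus strand at chr2:157204535-157204784, is given 5′ to 3′ up to the base before the start, with the E2F word, which begins 18 bases before it, in capitals.
Rbl1: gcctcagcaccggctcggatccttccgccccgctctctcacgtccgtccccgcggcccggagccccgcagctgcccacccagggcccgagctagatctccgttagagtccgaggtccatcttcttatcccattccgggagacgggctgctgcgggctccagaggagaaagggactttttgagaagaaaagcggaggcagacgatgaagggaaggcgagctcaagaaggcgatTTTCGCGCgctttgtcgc

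For comparison, the word with 15 bases on each side is shown for 3 called genes of S phase and 3 of M phase. Promoter entries on a single chromosome were left out of the choice. Among the rest, these genes have the smallest p in Sey where the sequence before the start holds the word with that much around it. Each sequence is on its gene's strand, with the E2F word (S phase genes) or TTTGAA (M phase genes), or the reverse complement of either, in capitals. They are Mcm6 at chr1:128359730-128359767 (minus), Cdc6 at chr11:98907998-98908035 (plus), Uhrf1 at chr17:56304113-56304150 (plus), Top2a at chr11:99024192-99024227 (minus), Cdk1 at chr10:69352963-69352998 (minus) and Ube2c at chr2:164769885-164769920 (plus).
Mcm6: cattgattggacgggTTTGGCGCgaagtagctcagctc
Cdc6: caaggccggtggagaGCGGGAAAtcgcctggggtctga
Uhrf1: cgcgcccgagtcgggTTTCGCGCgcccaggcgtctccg
Top2a: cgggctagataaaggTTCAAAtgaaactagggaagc
Cdk1: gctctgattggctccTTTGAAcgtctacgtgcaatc
Ube2c: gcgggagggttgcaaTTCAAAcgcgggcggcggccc

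An E2F word was found for 1 of the 7 G1 genes with a promoter entry, Rbl1, and for 8 of 20 genes (40%) of a wider G1 list. It was found for 11 of 23 genes of S phase (47.8%) and for 1 of 26 genes of M phase (3.85%). The share was 2.6% of all 27025 genes with an entry and 2.26% of all 32851 promoters. TTTGAA was found for none of the 7, for 7 of 20 genes (35%) of the wider G1 list and for 3 of 23 genes of S phase. For M phase it was found for 20 of 26 genes (76.9%), beside 20.2% of all genes and 17.9% of all promoters. These matches describe the letters in the window and show no binding.

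Hmga2 encodes an architectural chromatin protein that is high in early neural stem cells, where it is known to hold down the inhibitor locus Cdkn2a. It was the member of the set that fell. Its log2 values in Sey were 8.45, 8.62 and 8.90 in controls and 6.47, 7.20, 7.42 and 6.80 in mutants. The mutant arrays varied more among themselves than the controls did (SD 0.42 and 0.23). Even the highest of them lay below the lowest control, an order that 14.5% of all genes had in Sey. The log2 change was -1.68 ± 0.19 (SE; adjusted p = 2.97e-06 in limma), and the 3 kept probe sets changed by -1.62 to -1.97, each of them called.

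In Leca4 Hmga2 was at 9.35, 9.87, 9.48 and 9.64 in controls and 9.84, 9.48 and 9.65 in mutants, and in Leca2 at 10.14, 9.63 and 9.93 in controls and 9.91, 9.60, 9.44 and 9.78 in mutants. Both pairs of groups overlapped, and the changes were 0.07 and -0.22 with 95% intervals from -0.32 to 0.47 and from -0.61 to 0.18. The change in Sey was lower than that in Leca4 by 1.75 ± 0.27 and than that in Leca2 by 1.46 ± 0.27 on the log2 scale (SE; adjusted p = 0.000222 and 0.00205 in limma). Of the genes listed with Hmga2 for early progenitors, Igf2bp1 and Igf2bp3, which encode RNA-binding proteins, passed the filter, and Lin28a, Lin28b and Trim71 did not. In Sey Igf2bp3 rose by 0.24 ± 0.07 (SE; adjusted p = 0.0126) and the difference of Igf2bp1 was 0.12 (adjusted p = 0.0968). Cdkn2a and Cdkn2b were also below the filter.

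The comparison with later phases asked whether the G1 genes moved with S and M phase genes. In Sey 25 of 26 genes of S phase and 29 of 29 of M phase rose, with median log2 changes of 0.65 and 0.71, and the exception was Orc1, of the origin recognition complex (0.16, adjusted p = 0.406). The smallest p belonged to the helicase subunit gene Mcm6 (0.83 ± 0.07, SE), the DNA ligase gene Lig1 (0.68 ± 0.07) and the licensing gene Cdc6 (1.18 ± 0.12) in S phase, and to the topoisomerase gene Top2a (0.91 ± 0.08), the motor gene Cenpe (0.83 ± 0.10) and Kif4 (0.76 ± 0.10) in M phase. In Leca4 and Leca2 none of these 55 genes was called in limma. At an unadjusted p under 0.05 there were 5 of S phase and 1 of M phase in Leca4 and 6 and 2 in Leca2. In Leca2 23 of 26 and 29 of 29 had values above 0, with medians of 0.11 and 0.12, beside 7280 of all 13850 genes. The counts of both lists were the same with quantile normalization and with centring on the median, while that over all genes was 7234 and 6931. In Leca4 the counts of the lists were 19 of 26 and 18 of 29. The list means on the Leca2 arrays overlapped, at 10.34 to 10.58 in controls and 10.41 to 10.68 in mutants for S phase. For M phase they ran from 10.29 to 10.62 and from 10.34 to 10.71. Genes of a list share these arrays, so the counts are not independent observations.

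**Figure D4:**
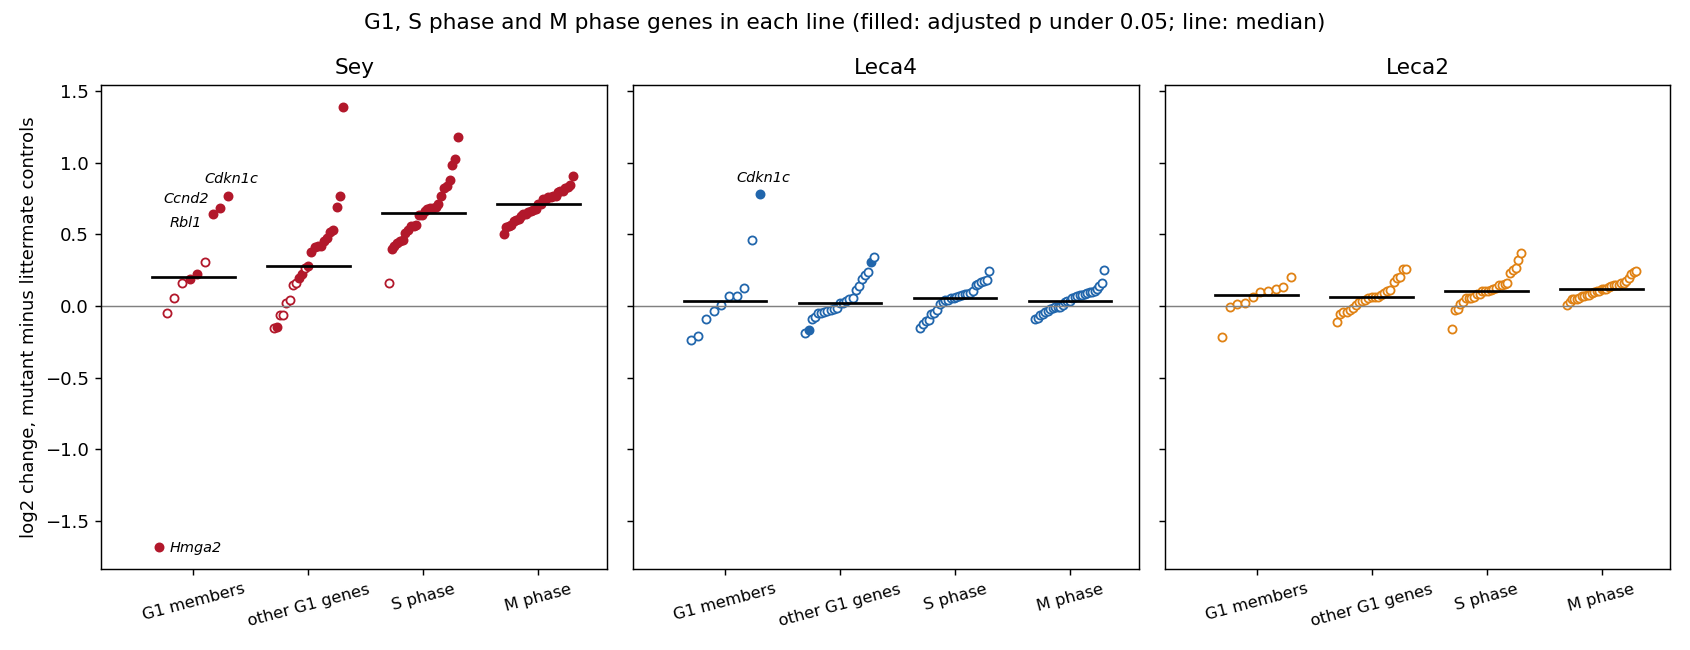
Log2 change (y axis) of the 10 G1 members, 23 other G1 genes, 26 S phase and 29 M phase genes in each line; each point is a gene, filled where the adjusted p in limma was under 0.05, and black lines are medians. In Sey the S and M phase genes lie together with medians of 0.65 and 0.71 while the G1 members run from -1.68 to 0.77, and in Leca4 Cdkn1c (0.78) is the G1 member that was called.

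To test each gene against this shift, the mean of the 55 S and M phase genes on an array was taken from each gene's value and all 13850 genes were fitted again. That mean ran from 9.82 to 9.89 in Sey controls and from 10.52 to 10.60 in mutants, a rise of 0.68. Relative to it, 7 of the 10 G1 genes were lower in Sey, where 94.1% of all genes were, and none was higher, where 0.91% were (95% in either direction). The share of members is no larger than that of all genes, and nothing is read from that count. Those with no call were Rbl1, with a difference of -0.03 and a 95% interval from -0.18 to 0.11, Cdkn1c, with 0.09 and an interval from -0.10 to 0.29, and Ccnd2, with 0.00 and an interval from -0.18 to 0.18. For Ccnd2 this rests on its brightest probe set. Its other 6 probe sets lay above the shift by 0.11 to 0.39. When each probe set was fitted on its own, 3 of the 6 were called (adjusted p = 0.00473, 0.0225 and 0.035 in limma). Of all probe sets 0.756% were called higher and 93% lower in that fit. With so many called, the adjustment hardly alters a p-value, and the unadjusted p in limma were 0.00416, 0.0207 and 0.0325. With the mean of its probe sets Ccnd2 was higher than the shift by 0.25 (adjusted p = 0.0468 in limma), and 8 members were then called apart. That value carries the same limit, since 95% of all genes were called in the main fit against the shift. The second probe set of Rbl1 gave 0.13 (adjusted p = 0.54).

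The members below the shift in Sey were Ccnd1 (-0.62 ± 0.12, SE), Ccnd3 (-0.46 ± 0.08), Cdk4 (-0.49 ± 0.09), Cdk6 (-0.51 ± 0.16), Cdkn1a (-0.37 ± 0.11), Cdkn1b (-0.73 ± 0.13) and Hmga2 (-2.36 ± 0.15), with adjusted p of at most 0.00529 in limma. With a term for sex the difference of Cdk6 was not called (adjusted p = 0.0596). Of the members below the shift, Ccnd3 and Cdk4 rose against controls but by less than the S and M phase genes, and Hmga2 fell. Ccnd1, Cdk6, Cdkn1a and Cdkn1b were not called against controls. A gene without a change lies below a mean that rose by 0.68, so their calls here follow from the shift and show no fall of their own. In Leca4 Cdkn1c was higher relative to the S and M phase genes (0.74 ± 0.09, SE; adjusted p = 2.96e-05 in limma), where 1.64% of all genes were higher and 1% lower (2.64% together), and no other member was called. At an unadjusted p under 0.05 there were 3, with Cdk6 at 0.42 (adjusted p = 0.266) and Cdkn1b at -0.28 (adjusted p = 0.428). Without Leca4 mutant replicate 3 a second member was called there. In Leca2 none of the members was called, where 0.599% of all genes were; at an unadjusted p under 0.05 there was 1, Hmga2 (-0.33, adjusted p = 0.494).

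Among 23 tested genes of a wider G1 list, 14 rose and 1 fell in Sey, with a median log2 change of 0.28. Those with the smallest p were E2f2 (1.39 ± 0.13, SE), an activating E2F, the E2F repressors E2f7 (0.76 ± 0.10) and E2f8 (0.69 ± 0.13), the Ink4 inhibitor gene Cdkn2c (0.52 ± 0.09), E2f3 (0.45 ± 0.09) and the phosphatase gene Cdc25a (0.38 ± 0.08). E2f2 was at 7.24 ± 0.21 (SD, n = 3) in Sey controls and 8.63 ± 0.20 (SD, n = 4) in mutants. The retinoblastoma gene Rb1 and its relative Rbl2 did not pass the test in Sey (-0.16 and 0.02, adjusted p = 0.286 and 0.886). Mycn was the gene that fell (-0.14 ± 0.05, SE; adjusted p = 0.0334). In Leca4 Tfdp2, an E2F partner, rose by 0.31 ± 0.08 and Mycn fell by 0.16 on the log2 scale (adjusted p = 0.0198 and 0.0429). In Leca2 none was called in limma, and 2 had an unadjusted p under 0.05.

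Likeness was measured by the root mean square difference between the log2 changes of 2 genes in the 3 comparisons, over all genes tested. Nearest to Ccnd2 were Ccnf, Plk4 and Gltp (0.0156 to 0.0197), and nearest to Rbl1 were Rad51c, Ercc6l and Pimreg (0.0159 to 0.0216). Cdkn1c was nearest to Slit2, Vcan and Hspb8 (0.0495 to 0.0711), with log2 differences of 0.68 to 0.79 in Sey and 0.72 to 0.78 in Leca4. Hmga2 had no gene closer than 0.0938, with Zfp874a, Hs3st1 and Lpar1 the nearest. Ccnd3 lay next to Ovol2, Suz12 and Spag7 and Cdk4 next to Klhl21, Baz1a and Nr2f6, at 0.00383 to 0.0134, where changes are small and many genes lie close together.

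Markers of cell types changed in each line, in Leca2 only 1 beside Pax6, while no G1 member changed there. Pax6 is the targeted gene, so its rise is not read as a sign of radial glia in any line. Of all genes 20.2% were called in Sey, 5.62% in Leca4 and 0.477% in Leca2. In Sey 7 of 9 projection neuron markers fell, with a summed level on the log2 scale of 15.22 to 15.27 in controls and 14.81 to 14.90 in mutants, and 7 of 8 ventral telencephalic markers rose, from 10.60 to 10.94 up to 13.39 to 13.96. Of 8 markers of intermediate progenitors 4 fell (Neurog1, Neurog2, Eomes and Sstr2) and 3 rose, and of 10 radial glia markers 2 rose (Pax6 and Sox2) and 1 fell (Slc1a3). In Leca4, beside the rise of Cdkn1c, 2 of 6 microglial markers rose (Csf1r by 0.42 and Cx3cr1 by 0.33), with a summed level of 10.29 to 10.46 in controls and 10.62 to 10.80 in mutants. There 1 of 8 intermediate progenitor markers also rose, and of 10 radial glia markers 1 rose (Pax6) and 1 fell. In Leca2 1 of 8 intermediate progenitor markers fell and 1 of 10 radial glia markers rose (Pax6). Of 4 meningeal markers Crabp2 rose in both lines where Cdkn1c did, by 1.78 in Sey and 1.17 in Leca4, and no other of the 4 was called. Their differences were -0.02 (Col1a2), 0.46 (Dcn) and -0.06 (Foxc1) in Sey and -0.42, -0.32 and 0.04 in Leca4. The summed level of the 4, which takes in Crabp2, ran from 8.33 to 8.48 in Sey controls and 9.24 to 9.48 in mutants, and from 8.84 to 9.22 and 9.34 to 9.82 in Leca4, while the median difference was 0.22 in Sey and -0.14 in Leca4. Of 6 endothelial and 5 erythroid markers none was called by limma in Sey or Leca4, and at an unadjusted p under 0.05 there were 2, both endothelial and in Sey. In whole tissue a change in the share of a cell type and a change of RNA per cell cannot be told apart, and the part of these markers in the G1 results was not tested.

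Sex was uneven in Sey, and 1 mutant array, replicate 2, was male like the controls. On that array the values were 13.85 for Ccnd2, 11.81 for Cdkn1c, 10.07 for Rbl1 and 7.20 for Hmga2, each beyond the range of the 3 male controls. The differences from the control mean were 0.68, 0.86, 0.70 and -1.45, beside 0.65 for the mean of the S and M phase genes. Ccnd1 on the same array lay within the range of the controls, 0.17 below their mean. All other members lay beyond that range, also Cdk6 (9.88), Cdkn1a (8.43) and Cdkn1b (11.65), which were not called in Sey. A place beyond the range therefore does not set the called members apart, and its share over all genes was not counted. This single array has no replicate and no test.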

How the data were processed

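Rostral cortex RNA of 21 samples was measured on 1 array each. The deposited values are log2 expression values by RMA, per the submitters' processing notes; array medians differ by line, so levels were not compared across lines, and lines were compared only by their mutant minus control differences. Of 45101 probe sets, 64 were controls, 34945 named 1 gene in the platform annotation, 932 several and 9160 none, and 34741 of the first matched the RefSeq table. Probe sets above the 40th percentile of their array on at least 3 arrays were kept (29474, of which 25140 name 1 gene), and the brightest stood for its gene. limma 3.58.1 in R 4.3.3 fitted all 6 groups together (15 residual degrees of freedom), with Benjamini-Hochberg adjustment per comparison, and was tested on simulated data. Arrays of a group correlated at 0.993 to 0.997, and their number limits the precision.

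The members and gene lists were chosen with earlier results of these data known. Named were all 10 members, up to 6 called genes per comparison from the wider G1 lists, the 3 smallest p in the S and M phase lists, and the 3 nearest genes of each called member. Mycn, Orc1, Rb1, Rbl2 and the named cell type markers were singled out after their values were seen. Alternatives were a stricter filter, the mean of probe sets, quantile normalization, median centring, trend and robust variance, a term for sex, the replicate number as a block, fits on the compared lines alone and leaving out each array. The fit of each probe set against the S and M phase mean was added after seeing the data.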

Additional observations from a re-analysis of the deposited data

Results flagged for a closer look

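Results were singled out here where the change of a G1 gene differed between lines by a test of the difference itself (limma, adjusted p under 0.05 over all genes). Such a difference was called for 12.8% of all genes between Sey and Leca4, 6.69% between Sey and Leca2 and 2.38% between Leca4 and Leca2. Between Sey and Leca4 it was called for Ccnd2 (0.554), Ccnd3 (0.313), Rbl1 (0.674) and Hmga2 (-1.75), each given as the log2 change in Sey minus that in Leca4. Between Sey and Leca2 it was called for Ccnd2 (0.563), Cdkn1c (0.665), Rbl1 (0.507) and Hmga2 (-1.46). Between Leca4 and Leca2 it was called for Cdkn1c (0.676), higher in Leca4. These calls are of the probe set that stands for each gene. Between Sey and Leca4 the second probe set of Ccnd3 gave -0.05 (adjusted p = 0.881 in limma). Some probe sets of Ccnd2 were not called there (0.0531, 0.0913 and 0.228), nor was the second of Rbl1 (0.0844). Between Sey and Leca2 the second of Rbl1 was not called (0.486), while the dimmer one of Cdkn1b was (0.0495). The lines share no control arrays, but Sey differs from the others in strain background, and line and strain cannot be told apart there. No array of a G1 gene stood apart from its group by Dixon's criterion in groups of 4.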

How the results depend on the processing

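Of 480 recomputed changes of the 10 genes, 465 kept their side of the threshold, 9 lost a call and 6 gained one. The sign turned in 23 of the 465, none of them called in either fit, and in 0 called values. Genes called numbered 779 in Leca4 and 66 in Leca2. They were 400 and 27 with only the groups compared and 450 and 28 with the replicate block, and ran from 512 to 749 and from 40 to 61 with an array left out, lowest without Leca4 mutant replicate 1 and Leca2 mutant replicate 2. Correlations of same-numbered deviations ran from -0.44 to 0.338. With so few arrays a line they cannot settle whether the replicate numbers pair the arrays. With the replicate block Ccnd3 in Sey was not called (adjusted p = 0.0517 in limma). Members whose change differed between Leca4 and Leca2 were 0 with only the groups compared and 0 with the replicate block, and 0 to 1 with an array left out. Members called in Leca4 were 2 with the filter at the 60th percentile, 2 with trend and robust variance, 2 with a term for sex and 1 to 2 with an array left out, Cdk6 being added. With the mean of probe sets 1 gene of M phase was called in Leca4 and 1 in Leca2. Members apart from the S and M phase genes in Leca4 were 1 to 2 with an array left out. The cause of these shifts was not tested. In Sey the members called were 5 to 6 over the settings and 4 to 7 with an array left out. Members apart from the S and M phase genes in Sey were 6 (term for sex) to 8 (mean of probe sets) over the settings and 7 with each array left out.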
